A study of Mus musculus with 24 samples.

Results

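A set of 9 genes that encode secreted proteins of the extracellular matrix was followed across airway epithelial cells sorted from the mouse trachea: Col7a1, Col4a1, Col4a2, Fn1, Tnc, Thbs1, Sparc, Matn4 and Ccdc3. They are 9 of the 35855 genes for which transcripts could be summed, and all 9 were among the 12211 genes with enough counts to be tested. The genes were put forward as secreted matrix genes of basal cells, with earlier results of these libraries known, so their levels in basal against differentiated cells are given as a description without a test. By the levels in these libraries, the name held for part of the list. CPM here are counts per 1000000 of each library's total after TMM scaling between libraries. By mean CPM, 2 of the 9 (Ccdc3 and Col7a1) were above the differentiated cells in both basal groups. By mean TPM, which divides by transcript length and lacks the TMM scaling, Sparc joined them, in BCAM LO at 73.95 ± 35.6 (SD, n = 8) against 69.3 ± 39.9. On log2(TPM + 0.1) the median of all genes was itself higher in basal cells, by 0.75 for BCAM HI and 0.48 for BCAM LO. The order of the groups for Sparc turned with the batch. On both scales 4 of the 9 (Tnc, Thbs1, Col4a1 and Col4a2) had their highest mean in the libraries of differentiated cells. Those libraries also held thyroid RNA, with 8 markers summing to 13850 to 117300 CPM, and its part in these levels was not tested.

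The study compared 3 sorted populations, which the labels call BCAM HI, BCAM LO and DIFFERENTIATED EPCS, with 8 libraries each. BCAM is a laminin-binding adhesion molecule, and the series title describes the work as one on basal cell subsets. Each library came from 1000 cells of untreated wild-type female C57BL/6 mice, and the 3 groups share genotype, sex and the absence of treatment. In every group, replicates 1 to 5 belong to batch 1 and replicates 6 to 8 to batch 2, and the sources used here do not say what the batch stands for, how old the mice were, how the cells were gated or how many animals went into a library. No label says that the libraries of a group came from separate animals, so p-values measure the spread between these libraries, which may in part be technical.

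Basal cells are the stem cells of the tracheal epithelium. They sit on the basement membrane, a sheet in which networks of laminin and type IV collagen are joined by linker proteins, and they anchor to it through hemidesmosomes, below which collagen VII forms anchoring fibrils that reach into the stroma. Fibronectin, tenascin-C, thrombospondin-1 and SPARC are glycoproteins that bind cells, collagen or growth factors and are known for their rise in repair.

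Total estimated counts ran from 1824619 to 4440072 per library. The basal keratin Krt5 measured 1262 to 2135 CPM in BCAM HI, 701 to 1122 in BCAM LO and 0 to 2.78 in DIFFERENTIATED EPCS, and Epcam, a surface marker of epithelium, was at 310 CPM or more in all 24 libraries. The DIFFERENTIATED EPCS libraries stood apart by RNA of the thyroid, which lies against the trachea. The summed level of 8 thyroid markers, led by thyroglobulin (Tg), was 13850 to 26050 CPM in batch 1 and 49670 to 117300 CPM in batch 2 of that group, against 1.71 to 42.7 CPM in batch 1 of the BCAM groups and 13.6 to 1285 CPM in batch 2. All 8 thyroid markers reached a mean of 1 CPM in both batches of the differentiated libraries. The parathyroid markers, 4 in number, summed to 332 to 29220 CPM in batch 1 of that group and to 15.6 to 416 CPM in batch 2. Fibroblast markers (8 genes) summed to 1.65 to 315 CPM in DIFFERENTIATED EPCS, 173 to 674 CPM in BCAM HI and 66.6 to 408 CPM in BCAM LO. One gene, Dcn, carried the BCAM sums, and the other 7 markers summed to 1.65 to 314, 4.11 to 20.9 and 4.85 to 142 CPM in the same order. Endothelial markers (8 genes) summed to 5.76 to 46.5, 19.1 to 64.6 and 17.1 to 71.4 CPM in the same order, and of these Pecam1 and Egfl7 were at 0 in none of the differentiated libraries, while Cdh5 and Tie1 were at 0 in 7 of 8.

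Promoter windows were read for the genes whose patterns the results turn on. RefSeq's table for mouse build GRCm38.p6, with 250 bases before and 50 after each start, held 7 of the 9 genes. Shown first are Ccdc3 and Col7a1, the genes near 0 in the differentiated cells, with matches to 5 searched motifs in capitals. The search covered both strands for the AP-1 motif (TGANTCA), the TEAD motif (GGAATG), the CCAAT box (CCAAT), the GC box (GGGCGG) and the TATA box (TATAAA).
Ccdc3 (chr2:5137526-5137825, plus strand): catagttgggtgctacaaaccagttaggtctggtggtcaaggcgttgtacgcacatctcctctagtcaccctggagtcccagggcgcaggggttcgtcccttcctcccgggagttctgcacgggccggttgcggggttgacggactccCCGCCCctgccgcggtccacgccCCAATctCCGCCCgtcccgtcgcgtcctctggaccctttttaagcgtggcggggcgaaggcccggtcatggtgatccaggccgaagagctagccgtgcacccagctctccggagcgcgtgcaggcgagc
Col7a1 (chr9:108953336-108953635, plus strand): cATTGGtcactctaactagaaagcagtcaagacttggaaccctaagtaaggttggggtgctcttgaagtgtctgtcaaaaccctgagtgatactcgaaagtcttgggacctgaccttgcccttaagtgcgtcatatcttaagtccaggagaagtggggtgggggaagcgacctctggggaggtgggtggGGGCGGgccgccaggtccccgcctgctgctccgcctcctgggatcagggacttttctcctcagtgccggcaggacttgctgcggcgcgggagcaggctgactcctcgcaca
The Ccdc3 window held 1 CCAAT at position -79 from the start and 2 GC boxes, on the minus strand at -102 and -72. In the Col7a1 window a CCAAT lay on the minus strand at -249 and a GC box at -61. Of the 32544 windows in the table, 37.4% held CCAAT and 35.9% held the GC box, so these matches are common. No window of the 7 genes held TGANTCA, which 7.79% of all windows held, and 1 of the 2 windows of Matn4 held GGAATG, against 14.6% of all windows. The absence of these letters says nothing of the factors.

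Col4a1 and Col4a2 stand head to head on chromosome 8, and their levels moved together in the differentiated cells. Their windows are shown with the 78 bases that both share in capitals, read from opposite strands.
Col4a1 (chr8:11312777-11313076, minus strand): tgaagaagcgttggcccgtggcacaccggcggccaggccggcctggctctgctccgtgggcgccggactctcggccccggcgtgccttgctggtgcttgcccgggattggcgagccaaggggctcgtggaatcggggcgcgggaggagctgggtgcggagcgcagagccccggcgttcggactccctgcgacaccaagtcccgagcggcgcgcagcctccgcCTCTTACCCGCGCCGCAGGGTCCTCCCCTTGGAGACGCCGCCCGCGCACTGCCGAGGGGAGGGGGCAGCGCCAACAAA
Col4a2 (chr8:11312555-11312854, plus strand): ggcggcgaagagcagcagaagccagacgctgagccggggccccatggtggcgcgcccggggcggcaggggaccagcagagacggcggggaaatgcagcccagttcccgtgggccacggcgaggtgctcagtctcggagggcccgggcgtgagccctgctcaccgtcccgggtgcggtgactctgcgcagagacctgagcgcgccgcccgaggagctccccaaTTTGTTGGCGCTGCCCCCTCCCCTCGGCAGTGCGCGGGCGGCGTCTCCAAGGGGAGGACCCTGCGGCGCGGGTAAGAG
The starts given by the table lie 21 bases apart, and the shared stretch is the same sequence on the other strand. Both windows were rich in G and C, at 74.0% for Col4a1 and 73.7% for Col4a2, against a median of 53.0% over all windows.

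Col7a1 (ENSMUSG00000025650, chromosome 9) encodes the chain of collagen VII, the collagen of anchoring fibrils. Its level was 69.9, 85.8 and 116 CPM (lowest, median and highest library) in BCAM HI and 54.3, 66.5 and 73.1 CPM in BCAM LO. In DIFFERENTIATED EPCS it was 0, 1.12 and 4.03 CPM, from 21 counts over the 8 libraries. Every BCAM library lay above every differentiated library. In a bulk library, fewer cells of a type and less RNA per cell cannot be told apart, here and in the results that follow. The fitted log2 fold change was 6.03 ± 0.27 (SE) for BCAM HI against DIFFERENTIATED EPCS and 5.56 ± 0.27 for BCAM LO. Non-overlap in this direction was seen for 6.10% of all genes tested with BCAM HI, for 3.44% with BCAM LO and for 2.92% with both, and among the members Ccdc3 shared it. Between the BCAM groups, Col7a1 was higher in BCAM HI by 0.48 ± 0.17 on the log2 scale, a difference that did not pass edgeR's quasi-likelihood test with Benjamini-Hochberg (BH) adjustment over all genes tested (adjusted p = 0.0915). It passed with DESeq2 (adjusted p = 0.0111) and in a fit of the 2 BCAM groups alone (0.00705).

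Ccdc3 (ENSMUSG00000026676, chromosome 2) encodes a secreted coiled-coil protein and was the other member close to 0 outside the basal groups. It measured 80.3, 121 and 136 CPM in BCAM HI and 41.9, 136 and 165 CPM in BCAM LO. A single count was found over the 8 DIFFERENTIATED EPCS libraries, in replicate 1, against 3310 counts in BCAM HI and 3354 in BCAM LO. With so few counts no fitted fold change is given. The ratio of summed counts over scaled totals was 1793 (exact 95% interval 321.5 to 70830) for BCAM HI and 1876 (336.5 to 74120) for BCAM LO, counting error only.

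Within the BCAM groups, the level of Ccdc3 differed between the batches. In BCAM LO the 5 libraries of batch 1 measured 136, 165, 146, 137 and 136 CPM and the 3 of batch 2 measured 41.9, 50.2 and 58.5 CPM. In BCAM HI the values were 128, 127, 136, 128 and 116 CPM in batch 1 and 80.3, 102 and 102 CPM in batch 2. The batches do not overlap in either group, and the gap was wider in BCAM LO. In BCAM LO, ciliated markers (7 genes) summed to 7.57 to 21.1 CPM in batch 1 and 173.5 to 316 CPM in batch 2, and secretory markers (7 genes) to 34440 to 55710 CPM and 61850 to 73580 CPM. In BCAM HI the ciliated sums were 8.54 to 14.4 and 4.95 to 11.9 CPM and the secretory sums 27820 to 34790 and 25730 to 33040 CPM. Their part in the level of Ccdc3 was not tested. Over all libraries BCAM HI and BCAM LO differed by 0.21 ± 0.15 on the log2 scale (adjusted p = 0.998, a value set by edgeR's Poisson bound on p, and 0.456 without that bound). In batch 1 alone the difference was -0.18 ± 0.13 (adjusted p = 0.433) and in batch 2 alone 0.91 ± 0.22 (adjusted p = 0.0371). The change of the difference with batch was 1.10 ± 0.23 on the log2 scale and passed the test (adjusted p = 0.0110), and Ccdc3 was the 1 member of 9 for which this comparison did so, against 1.06% of all genes tested. Without BCAM LO replicate 6 the adjusted p was 0.0556.

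The network collagen genes Col4a1 (ENSMUSG00000031502) and Col4a2 (ENSMUSG00000031503) encode the chains that assemble into the common type IV collagen trimer of basement membranes. Col4a1 measured 1.78, 6.21 and 24.5 CPM in BCAM HI, 1.32, 2.92 and 9.61 CPM in BCAM LO and 8.66, 19.6 and 76.4 CPM in DIFFERENTIATED EPCS. Col4a2 measured 3.56, 4.62 and 11.9 CPM in BCAM HI, 1.32, 4.06 and 7.57 CPM in BCAM LO and 9.50, 22.5 and 109 CPM in DIFFERENTIATED EPCS. Both were lower in the basal groups by mean, with BCAM LO and DIFFERENTIATED EPCS free of overlap for Col4a2 and overlapping for Col4a1. Of all genes tested, 3.83% were free of overlap in this direction. The log2 fold changes of BCAM HI against DIFFERENTIATED EPCS were -1.78 ± 0.47 for Col4a1 and -2.54 ± 0.38 for Col4a2, and those of BCAM LO -2.71 ± 0.51 and -2.78 ± 0.39. On 109 to 222 counts of Col4a1 and 117 to 154 of Col4a2 over each BCAM group, no difference between BCAM HI and BCAM LO was detectable at this depth. That comparison gave 0.93 ± 0.50 for Col4a1 (edgeR adjusted p = 0.297) and 0.24 ± 0.40 for Col4a2 (0.802).

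The log2 ratio of Col4a1 to Col4a2, by TPM, was 2.75 ± 1.16 (SD, n = 8) in BCAM HI, 1.71 ± 1.41 in BCAM LO and 1.47 ± 0.88 in DIFFERENTIATED EPCS. The 2 BCAM groups differed by 1.04 (two-sided exact permutation test, p = 0.130). By CPM the ratio differed by 0.57 (exact p = 0.176). The TPM ratio also holds the division of reads among the transcripts of Col4a1, of which one of 1170 bases (Col4a1-206) had 27.2% of the gene's estimated counts in BCAM HI, 27.4% in BCAM LO and 32.9% in DIFFERENTIATED EPCS.

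Thbs1 (ENSMUSG00000040152, chromosome 2) encodes thrombospondin-1, a matricellular glycoprotein that activates latent TGF-beta and inhibits angiogenesis. It measured 22.8, 43.4 and 105 CPM in BCAM HI, 11.1, 26.8 and 48.5 CPM in BCAM LO and 57.0, 118 and 795 CPM in DIFFERENTIATED EPCS. Every BCAM LO library lay below every differentiated library, which 3.83% of all genes tested did. The log2 fold change was -2.08 ± 0.43 for BCAM HI against DIFFERENTIATED EPCS and -2.86 ± 0.44 for BCAM LO. BCAM HI exceeded BCAM LO by 0.78 ± 0.42, which did not pass the edgeR test (adjusted p = 0.302).

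Tnc (ENSMUSG00000028364, chromosome 4) encodes tenascin-C, an anti-adhesive glycoprotein of developing and healing tissue. Its level was 2.89, 9.84 and 43.9 CPM in BCAM HI, 2.06, 8.0 and 16.3 CPM in BCAM LO and 12.4, 23.7 and 189 CPM in DIFFERENTIATED EPCS. The groups overlap over all libraries and within neither batch. In batch 1 the highest BCAM value was 11.8 CPM and the lowest differentiated value 12.4, a gap in this direction that 9.82% of all genes tested showed. In batch 2 the values were 43.9 and 88.0 CPM, with 12.4% of all genes. The log2 fold change was -1.77 ± 0.30 for BCAM HI and -2.40 ± 0.32 for BCAM LO, each against DIFFERENTIATED EPCS. BCAM HI and BCAM LO differed by 0.63 ± 0.32 (edgeR adjusted p = 0.263), with 0.15 in batch 1 alone and 1.42 in batch 2 alone, where it passed (adjusted p = 0.0175). The change of that difference with batch, 1.28 ± 0.54, did not pass (adjusted p = 0.327).

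Fn1 (ENSMUSG00000026193, chromosome 1) encodes fibronectin, which binds integrins and collagen. Its level was 36.1, 42.7 and 175 CPM in BCAM HI, 22.2, 33.2 and 92.2 CPM in BCAM LO and 10.5, 37.8 and 99.4 CPM in DIFFERENTIATED EPCS, so that all 3 groups overlap. The log2 fold change against DIFFERENTIATED EPCS was 0.63 ± 0.28 for BCAM HI and -0.04 ± 0.29 for BCAM LO. The sign of the BCAM LO value changed under several settings, and this small value carries no direction. BCAM HI against BCAM LO gave 0.67 ± 0.28 (edgeR adjusted p = 0.155), which passed in a fit of the 2 BCAM groups alone (0.0142).

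Sparc (ENSMUSG00000018593, chromosome 11) encodes a collagen-binding calcium protein that aids the deposition of type IV collagen. By TPM it had the highest mean level of the 9 genes in each of the 3 groups. It measured 61.1, 171 and 215 CPM in BCAM HI, 41.9, 98.1 and 160 CPM in BCAM LO and 54.3, 114 and 228 CPM in DIFFERENTIATED EPCS. The order of the groups turned with the batch. In batch 1, BCAM HI ran from 157.5 to 215 CPM and DIFFERENTIATED EPCS from 54.3 to 120 CPM, while in batch 2 BCAM HI ran from 61.1 to 136 CPM and DIFFERENTIATED EPCS from 126 to 228 CPM. The log2 fold change of BCAM HI against DIFFERENTIATED EPCS was 1.16 in batch 1 alone and -1.02 in batch 2 alone, and that of BCAM LO 0.54 and -1.96. The pooled values, 0.21 ± 0.35 and -0.49 ± 0.36, average over opposite directions. BCAM HI exceeded BCAM LO by 0.70 ± 0.34 (edgeR adjusted p = 0.245), and by an amount that passed in a fit of the 2 BCAM groups alone (0.00158).

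Matn4 (ENSMUSG00000016995, chromosome 2) encodes matrilin-4, an adaptor protein that links collagen and proteoglycan networks. It measured 8.93, 17.0 and 33.6 CPM in BCAM HI, 4.49, 7.09 and 9.86 CPM in BCAM LO and 8.97, 17.2 and 26.6 CPM in DIFFERENTIATED EPCS. BCAM LO was the low group, and its highest library overlapped the lowest of each other group. The log2 fold change was 1.33 ± 0.24 for BCAM HI against BCAM LO, -1.24 ± 0.25 for BCAM LO against DIFFERENTIATED EPCS and 0.09 ± 0.24 for BCAM HI against DIFFERENTIATED EPCS. The difference between BCAM HI and BCAM LO was known when the list was drawn up and is a description. It was 1.13 in batch 1 alone and 1.72 in batch 2 alone.

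**Figure D1:**
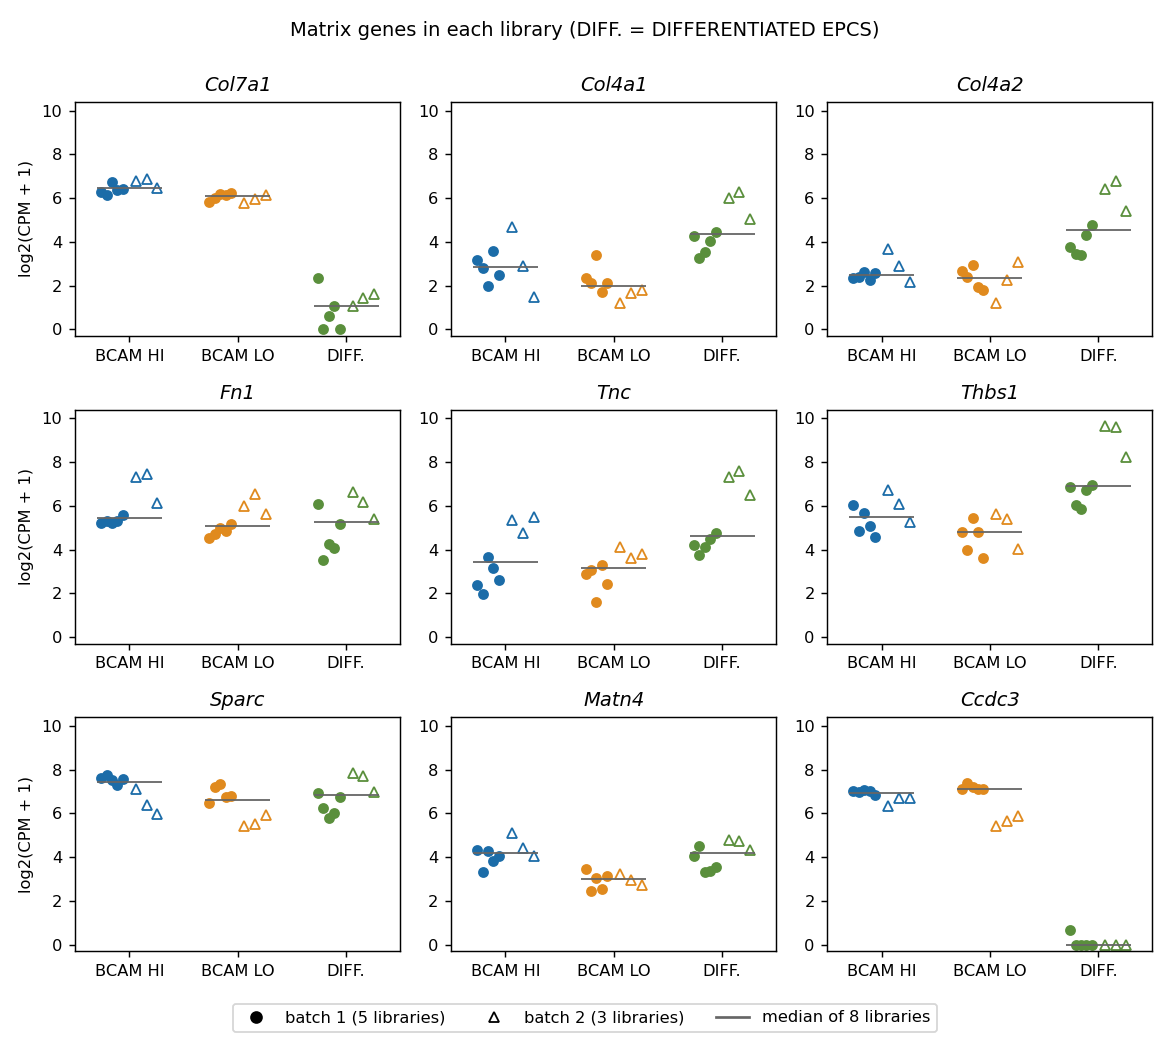
Level of the 9 matrix genes in each of the 24 libraries, as log2(CPM + 1), by group on the horizontal axis. Filled circles are batch 1, open triangles batch 2 and grey lines group medians. Col7a1 and Ccdc3 lie near 0 in DIFFERENTIATED EPCS, and Thbs1, Tnc, Col4a1 and Col4a2 are highest in the batch 2 libraries of that group.

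Over the 9 genes, all 9 fitted differences of BCAM HI against BCAM LO were above 0, with a median of 0.67 on the log2 scale against 0.00 over all genes tested. The list was drawn up with earlier results of these libraries known, so these signs and this median are a description. They include Matn4 and also Ccdc3, at 0.21 ± 0.15, which was higher in BCAM HI in 3 of 8 same-numbered pairs of libraries. Matn4, Sparc, Fn1, Thbs1 and Col7a1 were higher in BCAM HI in 8 of 8 such pairs. Col4a1 was higher in 6, Tnc in 5 and Col4a2 in 4. No label states this pairing. Leaving aside Matn4, whose difference is a description, edgeR called 0 of the other 8 at an adjusted p under 0.05, where 7.02% of all genes were called in this comparison (2.43% higher, 4.59% lower). At an unadjusted p under 0.05 there were 2 of the 8, where 2537 of all 12211 genes tested were under it. DESeq2 called 1 of the 8, and 1113 of 12208 genes over all. Ccdc3 was the 1 member whose sign differed between the batches. Calls beyond Matn4 depended on the setting, as given for Col7a1, Fn1, Sparc, Tnc and Ccdc3. Thbs1, Col4a1 and Col4a2 passed in none of the settings tried.

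**Figure D2:**
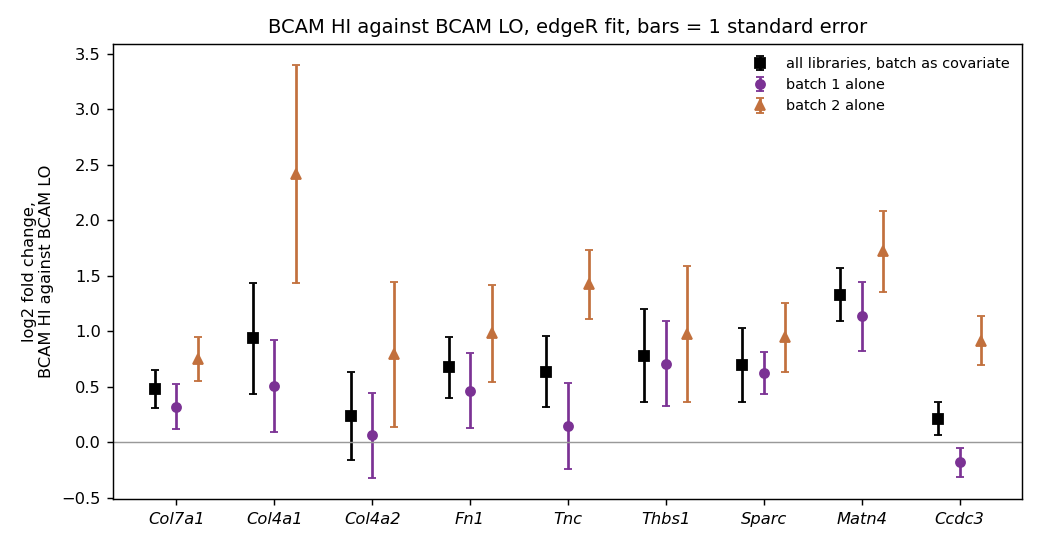
Log2 fold change of BCAM HI against BCAM LO for the 9 genes from edgeR fits over all libraries (black squares), batch 1 alone (circles) and batch 2 alone (triangles), with bars of 1 standard error. All values are above 0 apart from Ccdc3 in batch 1 alone, at -0.18.

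Set beside each other by TPM, the mean levels in BCAM HI were 148 ± 63.7 (SD, n = 8) for Sparc, 70.5 ± 14.1 for Col7a1, 49.8 ± 5.64 for Ccdc3, 26.7 ± 22.7 for Fn1 and 10.2 ± 6.34 for Thbs1. They were 8.25 ± 6.72 for Col4a1, 6.06 ± 3.51 for Matn4, 3.17 ± 3.10 for Tnc and 0.982 ± 0.574 for Col4a2. Of the neighbours in this order, Col7a1 and Ccdc3 were the pair whose ranges of 1 SD did not meet. That order holds for the deposited division of reads: 19.7% of the Col7a1 counts in BCAM HI were on a retained-intron transcript of 525 bases, while its longest coding transcripts have 9198 and 9250 bases. In BCAM LO the order was Sparc (73.95 ± 35.6), Ccdc3 (41.7 ± 19.3), Col7a1 (39.2 ± 14.0), Fn1 (13.1 ± 4.80), Thbs1 (4.80 ± 1.80), Col4a1 (2.94 ± 2.37), Matn4 (1.85 ± 0.430), Tnc (1.25 ± 0.646) and Col4a2 (0.676 ± 0.381). There the ranges of 1 SD parted Col7a1 from Fn1 and Fn1 from Thbs1. In DIFFERENTIATED EPCS, Sparc (69.3 ± 39.9) and Thbs1 (36.8 ± 42.1) led, and Col7a1 (1.22 ± 2.42) and Ccdc3 (0.0180 ± 0.0509) closed the order. Between them stood Fn1 (15.6 ± 11.7), Col4a1 (13.7 ± 13.1), Tnc (7.18 ± 8.54), Col4a2 (5.85 ± 7.70) and Matn4 (4.07 ± 2.11), and no neighbouring pair from Sparc to Ccdc3 was parted by 1 SD.

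Several of these genes differed between the batches. The batch term of the fit, batch 2 against batch 1 over all groups, was called for 5 of 9 members, 4 of them higher in batch 2 and 1 lower, against 11.8% and 9.61% of all genes tested. Tnc rose by 2.33 ± 0.25 on the log2 scale (edgeR adjusted p = 4.41e-07), Fn1 by 1.45, Thbs1 by 1.46 and Col4a2 by 1.20, and Ccdc3 fell by 0.94. The values of Col4a1 (0.84), Matn4 (0.52), Col7a1 (0.15) and Sparc (-0.32) did not pass. On log2(TPM + 0.1) with limma, the change of Col4a2 did not pass (adjusted p = 0.0545).

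The batches were then compared within each group. In BCAM HI, Tnc rose by 2.51 ± 0.35 (edgeR adjusted p = 3.66e-05) and Fn1 by 1.78 ± 0.40 (0.00823), and Sparc fell by 1.01 ± 0.27 (0.0223), against 4.93% of all genes tested called higher and 3.11% lower. The batches did not overlap for Tnc and Fn1 (higher, background 9.82%) and for Sparc and Ccdc3 (lower, 9.04%). In BCAM LO, Ccdc3 fell by 1.52 ± 0.17 (3.77e-07), Sparc fell by 1.34 ± 0.28 (0.00285) and Tnc rose by 1.24 ± 0.39 (0.0406), against 6.48% called higher and 4.66% lower. The same 4 genes were free of overlap there, Tnc and Fn1 higher (background 9.89%) and Sparc and Ccdc3 lower (8.41%). In DIFFERENTIATED EPCS, 6 of 9 members rose and none fell, against 9.98% of genes tested called higher. In the same libraries, secretory markers summed to 288000 to 417300 CPM in batch 1 and 13130 to 87970 CPM in batch 2, and the 8 basal markers to 2068 to 2593 CPM and 260 to 1018 CPM. One gene, Krt15, carried most of the basal sums, at 1902 to 2413 CPM and 211 to 914 CPM, and Pdpn and Ngfr were also lower in batch 2. Trp63 went the other way, at 0.619 to 3.46 CPM and 7.82 to 27.3 CPM, as did Krt17 at lower levels. Krt5, Krt14 and Dlk2 were near 0 in both batches. The part of secretory and basal RNA in the changes of the members was not tested. The members that rose were Tnc (2.95 ± 0.34), Thbs1 (2.73 ± 0.46), Col4a2 (2.34 ± 0.38), Col4a1 (1.95 ± 0.51), Fn1 (1.27 ± 0.43) and Sparc (1.15 ± 0.26). For 5 of the 6 the batches did not overlap in that group, against 10.9% of all genes, and Fn1 was the exception.

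Some of these calls rested on single libraries. In BCAM HI, the change of Fn1 did not pass without replicate 6 (adjusted p = 0.0550) or 7 (0.0641), and that of Sparc did not pass without replicate 2 (0.0522), 7 (0.122) or 8 (0.0986). The change of Tnc in BCAM LO did not pass when replicate 1, 3, 5, 6, 7 or 8 of that group was left out (adjusted p up to 0.197). In DIFFERENTIATED EPCS, Col4a1 did not pass without replicate 7 (0.0507), and Fn1 did not pass without any 1 of replicates 2 to 7 of that group or of BCAM HI replicates 1 and 3 (up to 0.211), nor with no filter on low counts (0.0934).

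**Figure D3:**
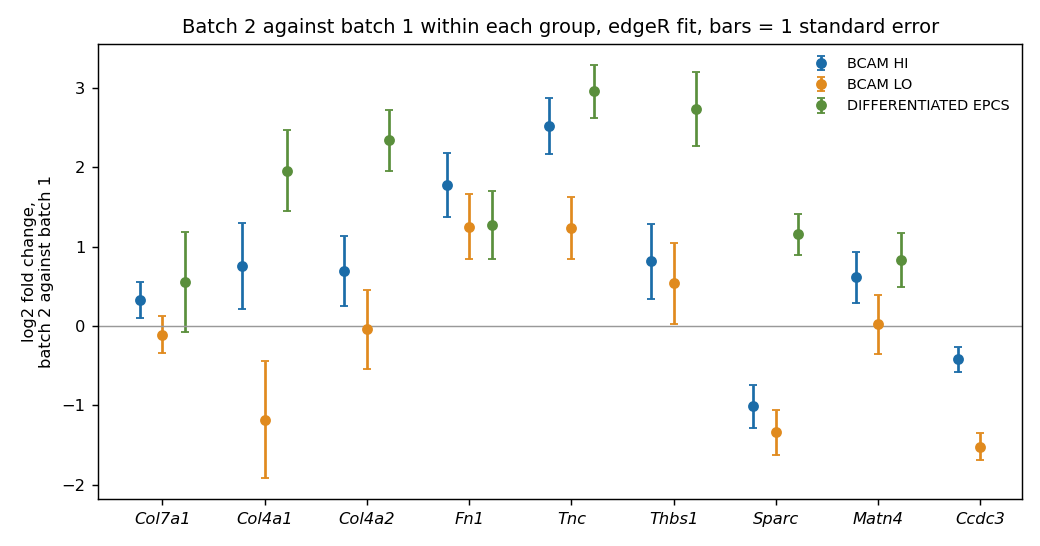
Log2 fold change of batch 2 against batch 1 within each group from the edgeR fit, with bars of 1 standard error. Ccdc3 is not drawn for DIFFERENTIATED EPCS, where it had 1 count. Tnc is above 0 in all 3 groups, and Sparc is below 0 in both BCAM groups and above 0 in DIFFERENTIATED EPCS.

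Whether a difference between groups changed with the batch was tested with interaction terms. For BCAM LO against DIFFERENTIATED EPCS, 5 of 9 members were called, all with a lower difference in batch 2, against 4.55% of all genes tested. They were Sparc (-2.49 ± 0.39, edgeR adjusted p = 1.23e-04), Col4a1 (-3.13 ± 0.90, 0.0223), Col4a2 (-2.38 ± 0.63, 0.0113), Tnc (-1.72 ± 0.53, 0.0322) and Thbs1 (-2.19 ± 0.70, 0.0496). Without DIFFERENTIATED EPCS replicate 7, 1 of these 5 calls was left (Sparc), and without BCAM LO replicate 6 or 7 there were 2. In the fits that left out BCAM LO replicate 4 or 8 or DIFFERENTIATED EPCS replicate 1, 2, 3 or 6 there were 3. For BCAM HI against DIFFERENTIATED EPCS, 1 of 9 was called, Sparc at -2.16 ± 0.38 (adjusted p = 5.31e-04), against 3.28% of all genes. The values of Col4a2 (-1.64 ± 0.59, 0.0817) and Thbs1 (-1.92 ± 0.68, 0.0910) did not pass. These comparisons share the DIFFERENTIATED EPCS libraries.

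Levels of thyroid markers moved with the same libraries. In DIFFERENTIATED EPCS, replicates 1 to 8 in order had summed thyroid markers of 15760, 14250, 13850, 26050, 24880, 83430, 117300 and 49670 CPM. Thbs1 measured 114, 65.0, 57.0, 105.5, 123, 795, 764 and 295 CPM in those libraries, and Tnc 17.3, 12.4, 16.4, 21.1, 26.2, 159, 189 and 88.0 CPM. Col4a1 measured 18.4, 8.66, 10.6, 15.6, 20.7, 63.8, 76.4 and 32.5 CPM, and Col4a2 12.7, 9.90, 9.50, 18.9, 26.2, 84.7, 109 and 41.2 CPM. Replicates 6 to 8 were the highest for all 4 genes and for the thyroid markers, and among them replicate 8 was the lowest for each. The part of thyroid RNA in these levels was not tested. The fibroblast collagens Col1a1 and Col3a1 were at 0 counts in replicates 7 and 8 and at 47.4 and 195 CPM in replicate 6. The part of fibroblast RNA was not tested.

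**Figure D4:**
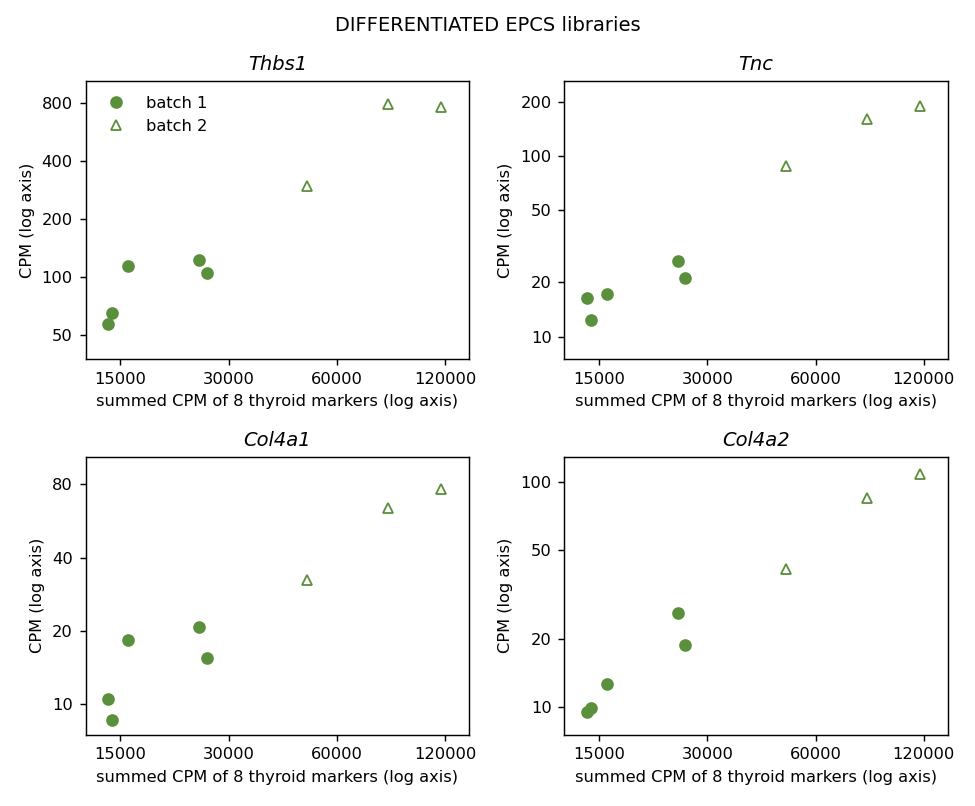
CPM of Thbs1, Tnc, Col4a1 and Col4a2 against the summed CPM of 8 thyroid markers in the 8 DIFFERENTIATED EPCS libraries, both on log axes, with batch 1 as filled circles and batch 2 as open triangles. The 3 libraries of batch 2 hold the highest values on both axes, and the 5 of batch 1 lie between 13850 and 26050 CPM of thyroid markers.

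In batch 1, thyroid markers summed to 13850 to 26050 CPM in DIFFERENTIATED EPCS and to 1.71 to 42.7 CPM in the BCAM groups. The 4 genes were lower in the basal cells in that batch as well. The log2 fold changes of BCAM HI against DIFFERENTIATED EPCS in batch 1 alone were -1.23 for Thbs1, -1.55 for Tnc, -1.20 for Col4a1 and -1.78 for Col4a2. Those in batch 2 alone were -3.17, -2.01, -2.42 and -3.44 in the same order. For BCAM LO the values were -1.94, -1.70, -1.70 and -1.84 in batch 1 alone and -4.15, -3.43, -4.84 and -4.23 in batch 2 alone. All 16 values were below 0, for genes named because their means were highest in DIFFERENTIATED EPCS. The part of thyroid RNA in these values was not tested in either batch.

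The genes whose pattern over the 24 libraries was most like each member were chosen by the smallest root mean square difference of centred log2 CPM among 9046 genes. For Col4a1 the nearest gene was Col4a2 (0.61) and for Col4a2 it was Dpysl2 (0.55), with Col4a1 second. Dpysl2 was also nearest to Thbs1 (0.70), followed by Col4a2 (0.72). The genes nearest to Ccdc3 were Dlk2 (0.67), a Notch pathway ligand on the basal marker list, and Dapl1 (0.68), and those nearest to Col7a1 were Procr (0.68), the endothelial protein C receptor, and Ces2e (0.74). Dapl1 measured a mean of 145 CPM in BCAM HI, 105.5 in BCAM LO and 1.10 in DIFFERENTIATED EPCS. For Tnc the nearest was Greb1l (0.75). For the members with the flattest patterns the nearest genes were Terf2ip and Nudt22 for Matn4 (0.53 and 0.54), Id1 and Ndst1 for Sparc (0.47 and 0.49) and Cald1 and Kdm6a for Fn1 (0.56 each), on members whose own spread by the same measure was 0.75, 0.73 and 0.95.

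The deposited values divide reads among transcripts, and for some members many fell on transcripts annotated as other than protein-coding. Of the estimated counts of Matn4, 77.0% were on a transcript annotated as a retained intron (Matn4-205), with 82.6% in BCAM HI, 87.3% in BCAM LO and 59.3% in DIFFERENTIATED EPCS. The share on retained-intron transcripts was 37.1% for Fn1, 21.8% for Col7a1 and 17.0% for Sparc, against 0.181% for Thbs1 and 0% for Tnc and Ccdc3. For Col4a1 a transcript annotated for nonsense-mediated decay (Col4a1-208) held 30.4% of the counts in BCAM HI, 44.4% in BCAM LO and 45.8% in DIFFERENTIATED EPCS. For Col7a1 the division between its coding transcripts of 9250 and 9198 bases differed between libraries. The longer held 190, 348, 289, 172 and 239 estimated counts in BCAM HI replicates 2, 3, 5, 6 and 8 and under 1 in replicates 1, 4 and 7, where the shorter held 201, 204 and 252. In all 8 BCAM LO libraries the longer held under 1 count and the shorter 106 to 249. A split of this kind is an estimate from short reads.

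The rest of the matrix genes were described from 5 lists that hold none of the 9 members. Of the basement membrane list, 20 of 28 genes were tested. In BCAM HI against DIFFERENTIATED EPCS 10 rose and 4 fell, with a list median of 0.39 on the log2 scale, and in BCAM LO 8 rose and 6 fell (median 0.24), where all genes tested had medians of 0.02 in both. The background was 19.4% called higher and 22.0% lower for BCAM HI, and 16.3% and 17.1% for BCAM LO. Chains of laminin-332 and its collagen partner led the rise: Col17a1 rose by 7.54 ± 0.39 in BCAM HI, Lama3 by 3.09 ± 0.27 and Lamb3 by 3.03 ± 0.35 (edgeR adjusted p = 7.03e-13, 1.63e-10 and 3.15e-07). Agrn, a heparan sulfate proteoglycan, also rose in BCAM HI against BCAM LO by 0.55 ± 0.13 (adjusted p = 0.00719), as did Col18a1 by 1.12 ± 0.35 (0.0496), which makes 2 of 20, against 2.43% of all genes called higher. With DESeq2, in batch 1 alone and in batch 2 alone, 1 of the 20 was called lower. Those that fell in BCAM HI against the differentiated cells were Npnt (-3.56 ± 0.38), Lamb1 (-2.75 ± 0.60), Col4a4 (-1.74 ± 0.46) and Col18a1, the last chosen after its value was seen, at -1.36.

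Of the matricellular and adaptor list, 17 of 32 genes were tested, and 6 rose and 6 fell in BCAM HI against DIFFERENTIATED EPCS (list median -0.46). Of all genes tested, 19.4% were called higher and 22.0% lower. In BCAM LO 7 rose and 8 fell (median -0.64), against 16.3% and 17.1% of all genes. Vwa1, a von Willebrand domain protein of basement membranes, rose by 5.23 ± 0.34 in BCAM HI, Ltbp4 by 3.24 ± 0.24 and Matn2, a relative of Matn4, by 3.12 ± 0.36. Smoc2, a relative of Sparc, fell by 5.10 ± 0.31 and Ccn4 by 4.81 ± 0.47. In BCAM HI against BCAM LO, 4 of the 17 rose, where 2.43% of all genes were called higher and 4.59% lower, namely Ccn1 (1.43 ± 0.27, edgeR adjusted p = 0.00202), Tgfbi (1.05 ± 0.27, 0.0170), Vwa1 (0.85 ± 0.23, 0.0225) and Efemp1 (0.51, named after its value was seen), and Ecm1 fell by 1.36 ± 0.27 (0.00261).

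Among the collagen maturation genes, which hydroxylate, fold, cut or crosslink collagen chains, 19 of 24 were tested, and 5 rose and 8 fell in BCAM HI against DIFFERENTIATED EPCS (median -0.42). The shares of all genes tested were 19.4% called higher and 22.0% lower. The prolyl hydroxylase P3h2 rose by 2.40 ± 0.24 and Bmp1, the protease that trims procollagen VII and other procollagens, by 1.83 ± 0.23, while P4ha2 fell by 1.56 ± 0.16 and P3h1 by 1.82 ± 0.31. BCAM HI against BCAM LO gave 1 higher, Fkbp10 (1.22 ± 0.27, edgeR adjusted p = 0.00455), and 3 lower, P4ha2, Colgalt1 and P3h1, against the same 2.43% and 4.59%.

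Matrix receptors were tested for 22 of 25 genes, of which 10 rose and 2 fell in BCAM HI against DIFFERENTIATED EPCS (median 0.51). Over all genes tested, 19.4% were called higher and 22.0% lower. The hemidesmosomal integrin chain Itgb4 rose by 3.71 ± 0.13 and the syndecans Sdc3 and Sdc1 by 4.15 ± 0.37 and 2.09 ± 0.23. Cd36, a receptor of thrombospondin-1, fell by 3.55 ± 0.53 and Sdc2 by 1.47 ± 0.25. Itgb4 (0.52 ± 0.12, edgeR adjusted p = 0.00499) and Sdc4 (0.34 ± 0.10, 0.0293) also rose in BCAM HI against BCAM LO, 2 of 22 against 2.43% of all genes.

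Of the matrix proteases and inhibitors, 13 of 24 were tested, and 4 rose and 6 fell in BCAM HI against DIFFERENTIATED EPCS (median -0.87). The background was again 19.4% called higher and 22.0% lower. Mmp14, a membrane-bound collagenase, rose by 1.07 ± 0.16 and Plat, tissue plasminogen activator, fell by 4.16 ± 0.54. In BCAM HI against BCAM LO Plat fell by 3.43 ± 0.53 (edgeR adjusted p = 2.83e-04) and Mmp15 by 1.42 ± 0.24 (4.01e-04), 2 of 13 against 4.59% of all genes. One of the 13 was called higher in batch 1 alone, with the 2 groups alone and on log2(TPM + 1). The lists' medians against DIFFERENTIATED EPCS depended on the scale: on log2(TPM + 0.1), where the median of all genes itself moved to 0.75 for BCAM HI, they were 0.59 for the matricellular list, 0.44 for collagen maturation and 0.16 for the proteases and inhibitors. On that scale 8 collagen maturation genes were called higher and 2 lower. Of all 12211 genes tested, 6809 were called higher and 879 lower there in BCAM HI against DIFFERENTIATED EPCS. Of the list genes named by the rule for BCAM HI against BCAM LO, Plat and Mmp15 passed in every alternative that kept all replicates or 1 whole batch, and each other gene named there kept its sign and missed the threshold in at least 1. The adjusted p was 0.0543 for Col18a1 with a replicate block, 0.825 for P4ha2 and 0.674 for P3h1 on log2(TPM + 0.1), and 0.104 for Agrn and 0.0784 for Itgb4 in batch 1 alone. Against DIFFERENTIATED EPCS, Col4a4 (0.210) and Sdc2 (0.0532) did not pass on log2(TPM + 0.1), nor did Lamb1 on log2(TPM + 1) (0.0502). Thyroid RNA, present in the differentiated libraries at the levels given above, was not separated from any of these list results, and its part in them was not tested.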

How the data were processed

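Each library's table lists 117497 transcripts with estimated counts and TPM that the authors deposited, per the file headers. Per the submitters' processing notes, kallisto 46.1, Picard and GRCm39 were used; the sources used here give neither their roles nor any options. Estimated counts as deposited carry no scaling between libraries, and TPM as deposited divide by transcript length and sum to 1000000 per library. Lengths and effective lengths of transcripts in the deposited files served for the length offsets. Identifiers were matched to GENCODE M21 (116374 matched; the 1123 others held 0.317% to 0.594% of counts), summed per gene and rounded to whole numbers. Reads shared by transcripts or near-identical genes are divided by estimation.

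The 9 members and all lists were chosen with earlier results of these data known. The main test was edgeR 4.0.16 quasi-likelihood F (robust, TMM, default filter, 12211 genes, all 24 libraries, group means with batch as covariate), BH adjusted, called under 0.05. A second fit, in which each group had its own mean in each batch, gave the interactions and the batch contrasts within groups. A standard error is the size of the log2 change over the root of its F value. CPM use TMM-scaled totals. Since no molecular identifiers were used, intervals hold for counting error alone. On simulated counts for BCAM HI against BCAM LO (12211 genes, 200 changed), 64% of 2-fold and 91% of 4-fold changes were recovered and 5.49% of calls were false. Named genes were the members, the 2 most alike genes per member (mean of at least 10 CPM) and, per list and comparison, up to 3 called genes in each direction with the largest change and a mean of at least 10 CPM. Alternatives were DESeq2 1.42.0, DESeq2 size factors, limma 3.58.1 on log2(TPM + 0.1) or log2(TPM + 1), length offsets, no filter, no batch term, a replicate block, 2 groups alone, each batch alone and leaving out each library, with edgeR without its Poisson bound added after the data were seen. One of the most alike genes is not reported here. Gene coordinates are not printed because the reference used here is another build.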

Additional observations from a re-analysis of the deposited data

Results flagged for a closer look

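Among the 27 combinations of gene and group, 2 had a library far from the other 7, where chance gives about 1 in 20. Ccdc3 in DIFFERENTIATED EPCS had its highest level, 0.576 CPM, in replicate 1, which is a single count against 0 in the other libraries. Col4a2 in BCAM HI had its highest level, 11.9 CPM, in replicate 6, the same library in which Col4a1 was highest in that group, at 24.5 CPM.

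Of 27 tests of whether a difference between groups changed with the batch, 7 passed edgeR's quasi-likelihood test at an adjusted p under 0.05. For BCAM HI against BCAM LO this was Ccdc3, at 1.10 on the log2 scale. For BCAM HI against DIFFERENTIATED EPCS it was Sparc, at -2.16. For BCAM LO against DIFFERENTIATED EPCS they were Sparc at -2.49, Tnc at -1.72, Thbs1 at -2.19, Col4a1 at -3.13 and Col4a2 at -2.38. Both Sparc results passed in all 24 fits that left out 1 library (adjusted p at most 0.00326 and 0.00102). Ccdc3 did not pass without BCAM LO replicate 6 (0.0556).

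Col4a1 did not pass without BCAM LO replicate 6 (0.0807) or 7 (0.0580) or DIFFERENTIATED EPCS replicate 7 (0.0580), and Col4a2 did not pass without BCAM LO replicate 6 (0.0559) or DIFFERENTIATED EPCS replicate 7 (0.0591). Tnc did not pass in 9 of the 24 fits, those without BCAM LO replicate 2, 4, 7 or 8 or DIFFERENTIATED EPCS replicate 1, 2, 3, 6 or 7 (up to 0.106). Thbs1 did not pass in 16 of the 24 fits, those without BCAM HI replicate 2, 3, 4 or 7, BCAM LO replicate 1, 3, 4, 6, 7 or 8, or DIFFERENTIATED EPCS replicate 1, 2, 3, 4, 6 or 7 (up to 0.127), nor with no filter on low counts (0.0829).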

How the results depend on the processing

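The number of genes called for BCAM HI against BCAM LO was 857 (297 higher, 560 lower), and 465 in batch 2 alone, 545 with no batch covariate and 1365 with the 2 groups alone. For BCAM HI against DIFFERENTIATED EPCS it was 5044 (2363 higher, 2681 lower), and 7688 on log2(TPM + 0.1) and 7713 on log2(TPM + 1). For BCAM LO against DIFFERENTIATED EPCS it was 4086 (1996 higher, 2090 lower), and 2067 in batch 2 alone. The batch term had 2618 calls (1444 higher, 1174 lower), and 1706 on log2(TPM + 0.1). On log2(TPM + 0.1) the calls split into 592 higher and 189 lower, 6809 and 879, 4277 and 624, and 1216 and 490 in the same order, and the median of all genes moved to 0.26, 0.75, 0.48 and 0.13. The cause was not tested.

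Of the members' values, Ccdc3 in BCAM HI against BCAM LO turned to -0.18 in batch 1 alone, and Sparc against DIFFERENTIATED EPCS turned to -1.02 in batch 2 alone (BCAM HI) and to 0.54 in batch 1 alone, 0.113 on log2(TPM + 0.1) and 0.112 on log2(TPM + 1) (BCAM LO). Fn1 in BCAM HI against DIFFERENTIATED EPCS turned to -0.0422 with length offsets. In BCAM LO it turned to 0.0188 with no filter, 0.118 on log2(TPM + 0.1), 0.075 on log2(TPM + 1) and 0.0674 with the replicate block, and ran from -0.15 to 0.28 over the libraries left out. Matn4 in BCAM HI against DIFFERENTIATED EPCS turned to -0.11 with length offsets and -0.0487 in batch 2 alone, and ran from -0.0495 to 0.20 over the libraries left out. The batch term of Col7a1 turned to -0.079 on log2(TPM + 1) and -0.12 with length offsets. Thbs1, Tnc, Col4a1 and Col4a2 stayed below 0 against DIFFERENTIATED EPCS in both BCAM groups under every setting run, and Col7a1 stayed above 0.

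With the replicate number as a block in place of batch, 864, 5129 and 4136 genes were called in the 3 comparisons of groups, and no member's call between BCAM HI and BCAM LO changed. After group and batch means were removed, the deviations of 24 same-numbered pairs correlated at 0.0315 to 0.176, 7 of them over 0.1. Of the 24, 23 correlated best with their own number among the 5 or 3 libraries of that batch in the other group. The data thus point to pairing by replicate number, at low correlations, which no label states. The main test treats same-numbered libraries as unpaired. Depth limits Ccdc3 and Col7a1 in DIFFERENTIATED EPCS (1 and 21 counts) and Col4a1 and Col4a2 in the BCAM groups (109 to 222 counts a group).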

Other observations

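Decorin (Dcn), a small matrix proteoglycan on the fibroblast marker list, was far above the other genes of that list in the BCAM libraries. It measured 159.5 to 667 CPM in BCAM HI, 61.7 to 372 CPM in BCAM LO and 0 to 7.10 CPM in DIFFERENTIATED EPCS, while Col1a1, the chain of fibroblast collagen I, was at 0 to 3.86 CPM in BCAM HI, 0.236 to 34.8 CPM in BCAM LO and 0 to 51.8 CPM in DIFFERENTIATED EPCS. In all 8 libraries of BCAM HI, Dcn was above 150 CPM with Col1a1 under 4 CPM. Lum, on the same list, was also lower in DIFFERENTIATED EPCS by mean, at 2.40 CPM in BCAM HI, 4.62 in BCAM LO and 0.141 in DIFFERENTIATED EPCS, where 7 of 8 libraries were at 0. Its level was near the floor, with an SD of 2.98 in BCAM HI. The rest of the list (Col1a1, Col1a2, Col3a1, Pdgfra, Dpt and Mfap5) went the other way, with the highest mean in DIFFERENTIATED EPCS. Col3a1, for one, had means of 1.79 CPM in BCAM HI, 15.6 in BCAM LO and 46.7 in DIFFERENTIATED EPCS. Dcn was singled out after its values were seen.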
